A study of Mus musculus with 12 samples.

Results

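The collagen genes are the 43 genes of the mouse annotation GENCODE M21 (build mm10) whose symbol is built as Col, a number, the letter a and a number, with Col14a1 left out, among 55833 features in 12 RNA-seq count tables. They were read by name in each table, whatever their level, and grouped by the kind of structure their protein forms: 11 fibrillar chains, 8 basement membrane chains (types IV, XV and XVIII) and 24 others. The libraries form 6 groups of 2, and each control group is compared with its own treated group. Of these libraries, 4 carry the cell line names TREX1-KO BMDM, TREX2-KO BMDM, TREX3-KO BMDM and TREX4-KO BMDM (BMDM stands for bone marrow-derived macrophages, KO for knockout), of which the first pair was treated with SSTC3, a compound known to activate the kinase CK1α, and the second pair with its solvent DMSO. By these names no cell line is in both groups, so an SSTC3 effect and a difference between lines cannot be told apart. Changes with SSTC3 below name this comparison only. The other 8 are MEF (mouse embryonic fibroblasts) with CK1α overexpression (CK1a_OE), its control (OE_control), CK1α knockdown by siRNA (CK1a_KD) or its control (KD_control). The genotype entry of all 12 libraries reads C57BL/6J. No label gives a dose, a time, a construct, an siRNA sequence or the origin of the replicates, and the p-values rest on how far the libraries of a group differ, which can be technical scatter alone.

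Collagens are proteins of the extracellular matrix in which 3 chains wind into a triple helix. The helix is built from 1 gene's chain in many types (type III, for example) and from chains of several genes in others (types I, IV, V and VI). Fibrillar collagens, led by types I, III and V in fibroblasts, assemble into cross-striated fibrils that carry tension. Type IV collagen forms the sheet-like network of basement membranes, and the other collagens decorate fibrils, form beaded filaments or anchors, or span the cell membrane. Fibroblasts are a main source of fibrillar collagen, whereas macrophages are known to make little of it.

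The position of 2 pairs of chains is shown because their levels part ways in the results. Col4a5 and Col4a6 lie head to head on chromosome X, on opposite strands with 1308 bases between the genes, and Col5a1 and Col5a3 encode chains of the same collagen type on chromosomes 2 and 9. RefSeq promoter windows (build GRCm38.p6) were found for 35 of the 43 genes. The letters below run 5′ to 3′ on the strand of the gene and end at the last base before the first annotated exon, and capitals mark, on either strand, the letters of the CCAAT box, of a GC box spelled GGGCGG or of a TATA box spelled TATAAA. The windows are chrX:141475169-141475384 on the plus strand, chrX:141474077-141474326 on the minus strand, chr2:27886175-27886424 on the plus strand and chr9:20815068-20815317 on the minus strand.
Col4a5: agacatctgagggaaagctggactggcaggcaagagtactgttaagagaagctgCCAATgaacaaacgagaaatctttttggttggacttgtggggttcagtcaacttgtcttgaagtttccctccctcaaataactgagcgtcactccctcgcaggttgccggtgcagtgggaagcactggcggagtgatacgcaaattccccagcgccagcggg
Col4a6: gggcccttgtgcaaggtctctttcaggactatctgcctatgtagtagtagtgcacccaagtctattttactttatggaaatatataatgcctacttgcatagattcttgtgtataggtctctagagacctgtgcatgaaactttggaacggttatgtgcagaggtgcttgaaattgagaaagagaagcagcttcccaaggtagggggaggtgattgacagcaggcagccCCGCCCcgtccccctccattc
Col5a1: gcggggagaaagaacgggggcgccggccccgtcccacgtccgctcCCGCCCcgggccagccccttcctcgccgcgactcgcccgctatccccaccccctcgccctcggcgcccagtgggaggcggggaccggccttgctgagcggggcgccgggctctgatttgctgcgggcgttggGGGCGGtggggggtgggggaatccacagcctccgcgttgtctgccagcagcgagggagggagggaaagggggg
Col5a3: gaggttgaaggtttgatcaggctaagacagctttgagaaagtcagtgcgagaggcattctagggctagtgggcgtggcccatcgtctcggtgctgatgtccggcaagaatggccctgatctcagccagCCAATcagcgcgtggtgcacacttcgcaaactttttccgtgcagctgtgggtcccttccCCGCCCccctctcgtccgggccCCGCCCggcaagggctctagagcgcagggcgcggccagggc
Among the 32851 windows of the table, each 250 bases upstream of a start site, CCAAT was found in 33.8%, GGGCGG in 32.7% and TATAAA in 12.4%. Of the 38 windows of collagen genes, 13 held CCAAT, 22 held GGGCGG and 5 held TATAAA. The window of Col5a1 is 76.4% G or C and that of Col5a3 62.8%, while the printed stretches of Col4a5 and Col4a6 have 52.3% and 47.6%. These matches describe letters only.

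Library totals ran from 16063627 to 19427506 counts. Csnk1a1, which encodes CK1α, had 172 and 169 counts per 1000000 counts of the library (CPM) in CK1a_KD against 325 and 354 in KD_control, and 229 and 244 CPM in CK1a_OE against 238 and 235 in OE_control, so the overexpression label is not visible in this transcript. Overexpression and CK1a_OE below name libraries by that label only. The libraries labelled BMDM did not show macrophage markers: 16 of them summed to 10.3 to 13.3 CPM, with Adgre1, Itgam, C1qa, C1qb, C1qc and Tyrobp at 0 counts in all 4. A list of 13 fibroblast markers other than collagens summed to 4150 to 4547 CPM there, but most of it was Vim (2531 to 2936) and Fn1 (1002 to 1197), which other cells also express. Pdgfrb (116 to 217) and Prrx1 (136 to 248) were present, while Dcn, Lum and Fap were at or under 1.30 CPM. These 4 libraries are therefore called the SSTC3 and DMSO libraries below. In the overexpression set (CK1a_OE and OE_control) the macrophage markers summed to 20.9 to 23.1 CPM, and in the knockdown set (CK1a_KD and KD_control) to 270 to 325 CPM, of which Cd68 made 246 to 296. The list of 13 fibroblast markers reached a sum of 3966 and 4049 CPM in CK1a_KD, and of 3323 and 3362 in KD_control, mostly Vim (2637 to 3555). The fibroblast marker Lum was at 0 counts in the knockdown set, as were Dcn and Twist1. The other 10 had counts, with Pdgfrb at 96.6 to 236 CPM. Overexpression libraries also had no Lum count and at most 0.0596 CPM of Dcn, but 29.9 to 36.6 CPM of Twist1. The overexpression tables list 55401 features and those of both other sets 54532, so the overexpression set was counted against another list of features. Levels set against that set carry this difference. Levels set across any of the 3 sets carry the difference between the cells.

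The 3 cell sets held different collagen repertoires. Collagen genes together made 8836 ± 217 CPM (SD, n = 2) in DMSO, 4440 ± 12.02 in OE_control and 5130 ± 158 in KD_control. Fibrillar chains made 77.8% of collagen counts in DMSO, 40.8% in OE_control and 24.8% in KD_control. Basement membrane chains made 3.01% in DMSO, 28.6% in OE_control and 47.2% in KD_control. The remaining collagens took 19.2%, 30.6% and 28.1%. The bar plot of summed levels gives each library.

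**Figure D1:**
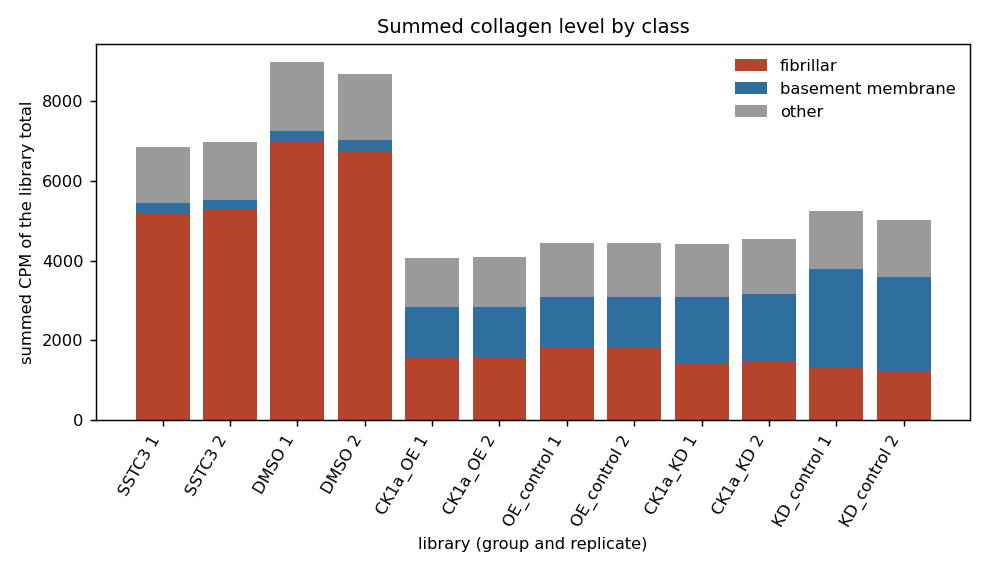
Summed level of the 43 collagen genes in each library, in CPM of the library total on a linear axis from 0, stacked by class. Fibrillar chains (red) fill most of the SSTC3 and DMSO bars and fall from 6876 CPM in DMSO to 5228 in SSTC3, while basement membrane chains (blue) fall from 2420 CPM in KD_control to 1690 in CK1a_KD.

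Per kilobase of mRNA (the annotated transcript with the longest coding sequence), which allows levels of different genes to be compared, the order of the chains differed as well. In DMSO the highest levels were those of Col1a1 (470 CPM per kb), Col1a2 (277), Col3a1 (182) and Col5a2 (147), followed by Col6a1 (128). In OE_control they were Col5a2 (140), Col4a1 (91.9), Col6a1 (90.7), Col1a2 (62.7) and Col4a2 (55.1), and Col1a1 had 10.7. In KD_control they were Col18a1 (176), Col4a1 (132), Col4a2 (84.2), Col5a3 (69.8) and Col6a3 (68.4). Col18a1, the source of the fragment endostatin, made 19.2% of collagen counts in KD_control and 0.184% in DMSO. Col5a1, a chain of type V, was at 69.8, 47.7 and 53.0 CPM per kb in DMSO, OE_control and KD_control. The order depends on the length used: over all annotated exon bases Col6a1 came second in DMSO, at 120.2 CPM per kb against 119 for Col1a2, and Col1a2 left the first 5 in OE_control.

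Several chains were near 0 in 1 set while their partners were not. Col6a3, the large chain of type VI collagen, had 0.36 counts for each count of Col6a1 in both DMSO libraries, 0.0139 and 0.0155 in OE_control, and 4.62 and 4.63 in KD_control. Col12a1, a collagen on the surface of fibrils, had 490 and 470 CPM in OE_control and 262 and 255 in DMSO, but 1.49 and 1.91 in KD_control. Col4a5 had 18.9 and 20.1 CPM in KD_control and 14.2 and 14.4 in CK1a_KD. Its head-to-head neighbour Col4a6, whose chain assembles with that of Col4a5, had 1 count over the 4 libraries of the knockdown set, although it stood at 34.4 to 41.3 CPM in the SSTC3 and DMSO libraries and at 81.7 to 87.1 CPM in the overexpression set. Col11a1, a minor fibrillar chain of cartilage, had 37.0 and 34.4 CPM in OE_control, 2.17 and 1.96 in DMSO and no count in any library of the knockdown set. The 3 sets did not overlap in any library for Col6a3, Col12a1, Col4a5, Col4a6 or Col11a1, and the share of all genes for which this held was not counted.

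**Figure D2:**
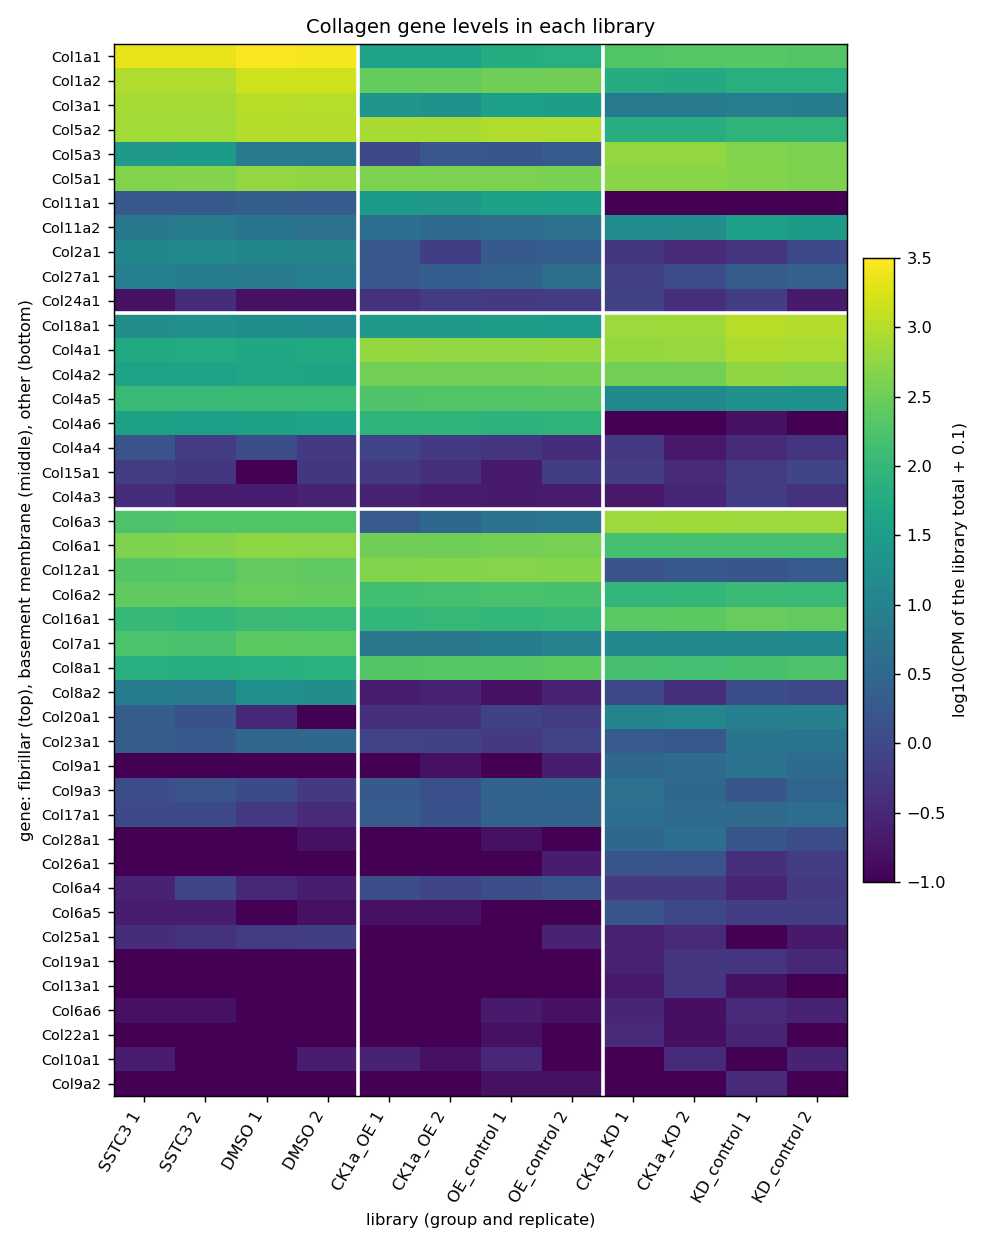
Level of each of the 43 collagen genes (rows, by class) in each of the 12 libraries (columns), as log10 of CPM of the library total plus 0.1. Replicates look alike, and the 3 cell sets, parted by white lines, differ for Col1a1, Col3a1, Col6a3, Col12a1, Col18a1, Col5a3 and Col4a6.

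Not every collagen gene could be tested. After the filter on low counts, 28 of the 43 entered the test for SSTC3, 26 for overexpression and 30 for knockdown. In each group between 16 and 19 collagen genes reached 10 CPM. The 8 genes Col4a3, Col6a6, Col9a2, Col10a1, Col13a1, Col19a1, Col22a1 and Col25a1 never exceeded 0.594 CPM in any library and were tested nowhere. Counting error limits what can be said of them: Col13a1 had 9 counts in CK1a_KD and 1 in KD_control, a ratio of 7.94 with an exact 95% interval of 1.10 to 348, which covers counting error only.

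With SSTC3 the abundant fibrillar chains of types I, III and V were lower, and the low chains Col5a3 and Col11a2 were higher. Of the 28 collagen genes tested, 5 were higher and 11 lower than in DMSO at an adjusted p under 0.05 (edgeR), and 12 did not pass. Among all 14151 genes tested 53.6% were called, 27.1% higher and 26.5% lower, so a count of 16 among 28 is near this background. The 5 higher calls were 2 without SSTC3 replicate 2 and 3 without either DMSO library. The median log2 fold change of the tested collagens was −0.08, against 0.01 over all genes. By class, 2 of 10 tested fibrillar chains were higher and 5 lower (median −0.22), 1 of 6 basement membrane chains was higher and none lower (median 0.07), and 2 of 12 other collagens were higher and 6 lower (median −0.13).

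Among the fibrillar chains, Col1a1 (ENSMUSG00000001506, mm10 chromosome 11, 94936224 to 94953042, plus strand), the α1 chain of type I collagen, had 2242 and 2258 CPM in SSTC3 and 2863 and 2704 in DMSO, a log2 fold change of −0.25 ± 0.03 (SE, adjusted p = 4.28e-13). Its partner Col1a2 (ENSMUSG00000029661, chromosome 6, 4504814 to 4541544, plus strand) had 904 and 926 CPM against 1491 and 1468, a log2 fold change of −0.64 ± 0.03 (adjusted p = 2.7e-49). The partners thus fell by different amounts, and the number of Col1a1 counts for each Col1a2 count was 2.48 and 2.44 in SSTC3 against 1.92 and 1.84 in DMSO. Col3a1 (ENSMUSG00000026043, chromosome 1, 45311538 to 45349706, plus strand), which forms homotrimers in the same fibrils, had 797 and 795 CPM against 1037 and 994, a log2 fold change of −0.30 ± 0.03 (adjusted p = 6.01e-15). Treated and control libraries did not overlap for any of these chains, but the share of all genes without overlap was not counted. It adds no support to calls already made. The sum of the 13 fibroblast markers was 4504 to 4547 CPM in SSTC3 and 4150 to 4205 CPM in DMSO. Of 11 tested, 4 were higher, Twist1 (0.72), Thy1 (0.62), Fn1 (0.27) and Vim (0.25). Another 4 were lower, Pdgfra (−0.86), Pdgfrb (−0.79), Prrx1 (−0.77) and Postn (−0.61). Of 7 osteoblast markers, 3 were tested and Spp1 alone was called, at 600 and 580 CPM against 354 and 368, while Runx2 did not pass (−0.02, adjusted p = 0.802). Their part in the fibrillar values was not tested.

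Type V collagen sits inside type I fibrils and governs their diameter, and the transcripts of its chains did not all move the same way. Col5a1 had 444 and 466 CPM in SSTC3 and 597 and 576 in DMSO (log2 fold change −0.31 ± 0.04, adjusted p = 7.85e-15). Col5a2 had 747 and 761 CPM against 977 and 976 (−0.32 ± 0.03, adjusted p = 9.73e-17). In the other direction, Col5a3 (ENSMUSG00000004098, chromosome 9, 20770050 to 20815067, minus strand), the chain with the more restricted expression, had 26.0 and 28.3 CPM against 7.21 and 7.24, a log2 fold change of 1.96 ± 0.12 (adjusted p = 6.37e-38). The windows of Col5a1 and Col5a3 printed above belong to chains of 1 collagen type that moved in opposite directions. Col5a3 stayed the least abundant of the 3, at 4.43 CPM per kb in SSTC3 against 54.1 for Col5a1.

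The cartilage-type fibrillar chains were low. Col11a2 had 6.54 and 8.14 CPM in SSTC3 and 5.51 and 4.75 in DMSO, a log2 fold change of 0.57 ± 0.19 (adjusted p = 0.00557). Without SSTC3 replicate 2 its change was 0.40 (adjusted p = 0.149) and without DMSO replicate 2 it was 0.46 (adjusted p = 0.077), and DESeq2 did not call it (adjusted p = 0.0847). Col2a1, the main collagen of cartilage, with 11.5 and 13.8 CPM against 11.5 and 11.3, Col11a1 and Col27a1 did not pass. Over the same libraries, 7 chondrocyte markers summed to 45.2 to 49.5 CPM in SSTC3 and 17.1 to 18.3 in DMSO, with Hapln1 and Cnmd at 0. Most of that sum was Sox9, a regulator of cartilage genes, with 38.4 and 42.9 CPM against 10.5 and 10.2. Of the 4 markers tested, Sox9 (2.03) and Comp (1.59) were higher, Matn3 was lower (−0.58) and Acan did not pass (0.14). The part of such cells or of Sox9 in these values was not tested, and in bulk RNA fewer cells of a type and less RNA per cell cannot be told apart.

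The basement membrane chains were low in these libraries and moved little. Col4a1 (chromosome 8, 11198423 to 11312826, minus strand) had 54.9 and 59.6 CPM in SSTC3 and 50.6 and 53.7 in DMSO (log2 fold change 0.19 ± 0.07, adjusted p = 0.0134). This call was lost without SSTC3 replicate 2 (0.13, adjusted p = 0.219), without DMSO replicate 1 (0.14, adjusted p = 0.162), with library totals as the only scaling (adjusted p = 0.0862) and with DESeq2 (adjusted p = 0.114). Its partner Col4a2 had 41.3 and 41.5 CPM against 45.9 and 42.3, and did not pass (−0.04, adjusted p = 0.713). Col4a5 (106 and 107 CPM against 112 and 114), Col4a6 (35.5 and 34.4 against 36.9 and 41.3), Col18a1 (16.4 and 18.5 against 17.0 and 15.5) and the low Col4a4 did not pass either. Per kilobase of transcript, Col4a5 stood above its relatives in DMSO, at 17.3 CPM per kb against 7.88 for Col4a1 and 6.84 for Col4a2, whereas Col4a1 led in the other sets.

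Of the other collagens, Col8a2, a chain of the hexagonal network of type VIII, had 8.07 and 6.96 CPM in SSTC3 against 18.0 and 16.6 in DMSO, a log2 fold change of −1.15 ± 0.14 (adjusted p = 7.11e-14). It is the collagen whose fall also passed a test for a change beyond 1.5-fold. Its partner Col8a1 did not pass, with 68.0 and 63.5 CPM against 67.7 and 74.9. Col7a1, the anchoring fibril collagen, had 167 and 162 CPM against 237 and 223 (−0.43 ± 0.04, adjusted p = 4.53e-18). The fibril-associated Col12a1 had 198 and 204 CPM against 262 and 255 (−0.31 ± 0.04, adjusted p = 2.15e-11). Type VI fell less: Col6a1 had 435 and 464 CPM against 539 and 514 (−0.17 ± 0.04, adjusted p = 1.28e-05), and Col6a3, at 173 and 186 against 192 and 187, did not pass. Col6a2 (−0.11, adjusted p = 0.0173) and Col16a1 (−0.16, adjusted p = 0.00867) were called, but the former was lost without SSTC3 replicate 1 (−0.08) or DMSO replicate 1 (−0.10) and the latter, at 102 and 95.1 CPM against 118 and 110, without SSTC3 replicate 2 (−0.11), without DMSO replicate 1 (−0.11) or with DESeq2 (adjusted p = 0.0626).

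Of the other collagens, 2 low ones rose. Col20a1, a fibril-associated collagen, had 34 and 21 counts in SSTC3 and 4 and 0 in DMSO, a ratio of 13.7 in CPM with an exact 95% interval of 5.07 to 52.2 that covers counting error only (edgeR log2 fold change 3.75 ± 0.66, adjusted p = 1.61e-07, and 7.80 without DMSO replicate 1, which leaves a control at 0). Col17a1, a collagen of the cell membrane, had 0.883 and 0.885 CPM against 0.469 and 0.238 (adjusted p = 0.0449). It lost its call without any 1 of the 4 libraries (log2 fold change 0.95 to 1.91, adjusted p = 0.0924 to 0.35), with DESeq2 (adjusted p = 0.209), with no filter on low counts (adjusted p = 0.105), with library totals as the only scaling (adjusted p = 0.0544) and with the replicate number as a block (adjusted p = 0.0571). Col9a3 and Col23a1, at or under 3.03 CPM in these libraries, did not pass.

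**Figure D3:**
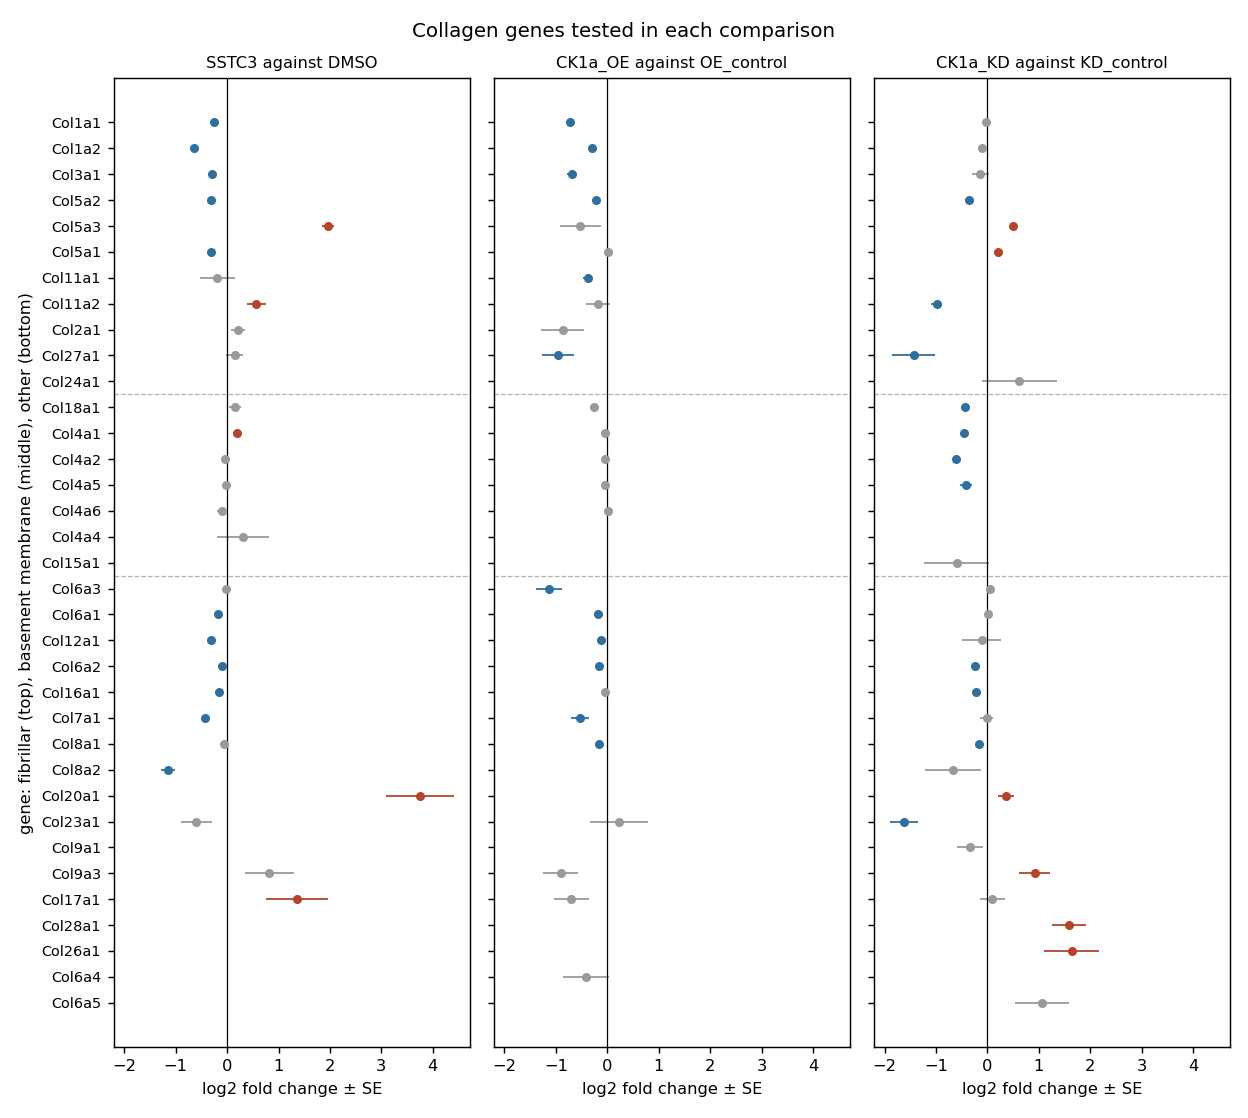
Log2 fold change with its SE (edgeR, n = 2 per group) for the collagen genes tested in each comparison, with classes parted by dashed lines, and red for higher, blue for lower and grey for not called. In the left panel Col5a3 and Col20a1 stand to the right at 1.96 and 3.75, in the middle panel 12 genes are lower and none higher, and in the right panel the called basement membrane chains lie between −0.62 and −0.42.

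In the libraries labelled CK1a_OE no collagen gene was called higher and 12 of 26 tested were called lower than in OE_control (edgeR), while 14 did not pass. Over all 13958 genes tested, 13.3% were called, 5.78% higher and 7.57% lower. At an unadjusted p under 0.05 no collagen gene was higher either, and DESeq2 also called 0. With DESeq2, 7 collagen genes were lower, and 3 of the others (Col27a1, Col6a3 and Col7a1) received no adjusted p. The median log2 fold change of the tested collagens was −0.24, against 0.00 over all genes. The 12 were 6 of 10 tested fibrillar chains (median −0.45), none of 5 basement membrane chains (median −0.04) and 6 of 11 other collagens (median −0.17). None of the 12 passed a test for a change beyond 1.5-fold, which called 1 gene higher and 3 lower among all genes of this comparison.

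Both chains of type I and the chain of type III fell. Col1a1 had 38.8 and 39.0 CPM in CK1a_OE and 61.4 and 65.3 in OE_control, a log2 fold change of −0.72 ± 0.07 (adjusted p = 8.86e-12). Col1a2 had 279 and 273 CPM against 335 in each control, and its log2 fold change was −0.30 ± 0.03 (adjusted p = 9.93e-10). Here Col1a1 fell by more than its partner, with 0.139 and 0.143 Col1a1 counts for each Col1a2 count in CK1a_OE and 0.183 and 0.195 in OE_control. Col3a1 had 21.8 and 20.8 CPM against 34.6 and 33.4 (−0.69 ± 0.09, adjusted p = 2.8e-07). The groups did not overlap for these 3 genes, though how many of all genes did not overlap was not counted.

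Of type V, Col5a2 had 805 and 799 CPM against 935 and 926 (−0.23 ± 0.02, adjusted p = 5.36e-10), whereas Col5a1 did not pass, with 407 and 411 against 412 and 390 and overlapping groups. Col5a3 was near 1 CPM in all 4 libraries. Col11a1, which can take the place of a type V chain in mixed fibrils, had 28.7 and 26.7 CPM against 37.0 and 34.4 (−0.38 ± 0.09, adjusted p = 0.0018). Col27a1 was called at −0.96 ± 0.31 (adjusted p = 0.0305) from 1.55 and 2.15 CPM against 2.60 and 4.53, but not without CK1a_OE replicate 1 (−0.75) or OE_control replicate 2 (−0.50). Col2a1 did not pass (−0.87, adjusted p = 0.17), and it did without CK1a_OE replicate 1 (−1.71, adjusted p = 0.0394).

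The type IV chains, which made 27.9% of collagen counts in OE_control, did not pass. Col4a1 had 603 and 593 CPM in CK1a_OE and 596 and 619 in OE_control, and Col4a2 347 and 350 against 352 and 359. Col4a5 had 184 and 192 CPM against 191 and 194, and its neighbour Col4a6 84.3 and 87.1 against 81.7 and 86.0. Col18a1 had 25.5 and 26.7 CPM against 31.9 and 29.6 and missed the threshold at −0.25 ± 0.09 (adjusted p = 0.0635), which it passed in a fit over all 12 libraries (adjusted p = 0.0106).

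Of the others, Col6a3 showed the widest fall, from 5.14 and 5.81 CPM in OE_control to 1.84 and 3.22 in CK1a_OE (log2 fold change −1.12 ± 0.25, adjusted p = 0.00115), which was lost without CK1a_OE replicate 1 (−0.78, adjusted p = 0.0594). Its abundant partners fell less, Col6a1 from 369 and 375 CPM to 339 and 328 (−0.17 ± 0.03, adjusted p = 7.61e-05) and Col6a2 from 159 and 158 to 138 and 149 (−0.16 ± 0.04, adjusted p = 0.00744). Col7a1 was at 6.25 and 6.20 CPM against 8.14 and 9.65 (−0.53 ± 0.17, adjusted p = 0.0312), Col8a1 at 195 and 206 against 216 and 229 (−0.16 ± 0.04, adjusted p = 0.00224), and Col12a1 at 437 and 458 against 490 and 470 (−0.12 ± 0.03, adjusted p = 0.00538). Each of these 4 smaller calls was lost without 1 library: Col6a2 without CK1a_OE replicate 1 (−0.11) or OE_control replicate 1 (−0.15), Col7a1 without either CK1a_OE library (−0.54 and −0.52) or OE_control replicate 2 (−0.40), Col8a1 without OE_control replicate 2 (−0.12), and Col12a1 without CK1a_OE replicate 1 or OE_control replicate 1 (−0.08 in both). DESeq2 did not call Col6a2 (adjusted p = 0.103) or Col12a1 (adjusted p = 0.0649). Col16a1, at 97.0 and 99.2 CPM against 95.9 and 105, did not pass, nor did the low Col6a4, Col9a3, Col11a2, Col17a1 and Col23a1.

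In CK1a_KD, 4 of 5 tested basement membrane chains were called lower than in KD_control, and types I and III had no call. Of 30 collagen genes tested, 6 were higher and 11 lower than in KD_control (edgeR), and 13 did not pass. The background was 54.7% of 14832 genes, 28.3% higher and 26.4% lower, so 17 of 30 is near it. The 6 higher calls were 3 without KD_control replicate 1. The median log2 fold change was −0.13 for the tested collagens and −0.01 over all genes. Of the basement membrane chains 4 of 5 tested were lower and none higher (median −0.45). Of the fibrillar chains 2 of 9 were higher and 3 lower (median −0.11), and of the others 4 of 16 were higher and 4 lower (median −0.01).

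Col4a1 had 616 and 630 CPM in CK1a_KD and 883 and 860 in KD_control, a log2 fold change of −0.45 ± 0.04 (adjusted p = 2.96e-15). Col4a2 (ENSMUSG00000031503, chromosome 8, 11312805 to 11449287, plus strand) had 341 and 349 CPM against 568 and 519, a log2 fold change of −0.62 ± 0.04 (adjusted p = 2.82e-19). These genes encode the chains of the common type IV trimer and lie head to head, with start sites 21 bases apart on opposite strands. They fell together, Col4a2 by more, so that each Col4a2 count went with 1.81 Col4a1 counts in both CK1a_KD libraries and with 1.55 and 1.66 in KD_control. Col4a5 had 14.2 and 14.4 CPM against 18.9 and 20.1 (−0.42 ± 0.12, adjusted p = 0.00246). Col18a1 (ENSMUSG00000001435, chromosome 10, 77052178 to 77166548, minus strand) had 690 and 723 CPM against 1021 and 949, a log2 fold change of −0.44 ± 0.04 (adjusted p = 1.67e-14). Treated and control libraries did not overlap for these 4 genes, but the share of all genes without overlap was not counted. The class as a whole went from 2420 ± 101 CPM (SD, n = 2) to 1690 ± 38.2.

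Among types I, III and V, calls were made for type V. Col5a3 had 587 and 593 CPM in CK1a_KD and 440 and 414 in KD_control (0.50 ± 0.04, adjusted p = 2.26e-16), and Col5a1 491 and 505 against 458 and 433 (0.20 ± 0.04, adjusted p = 7.05e-05). Col5a2 had 63.1 and 63.8 CPM against 84.5 and 82.8 (−0.36 ± 0.06, adjusted p = 2.25e-06). Each count of Col5a2 thus went with 7.79 and 7.90 counts of Col5a1 in CK1a_KD and 5.42 and 5.23 in KD_control. Col1a1, at 188 and 204 CPM against 211 and 201, Col1a2, at 62.0 and 57.3 against 65.7 and 66.0, and Col3a1, at 6.90 and 7.05 against 8.22 and 7.51, did not pass (adjusted p = 0.589, 0.191 and 0.53). A fit over all 12 libraries called Col1a2 lower (−0.14, adjusted p = 0.00959).

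Among the cartilage-type chains, Col11a2 had 15.5 and 15.7 CPM in CK1a_KD against 34.9 and 28.8 in KD_control (−0.99 ± 0.11, adjusted p = 6.27e-12). Col27a1 had 0.618 and 0.947 CPM against 2.05 and 2.30 (−1.44 ± 0.43, adjusted p = 0.00319). The 7 chondrocyte markers summed to 209 to 212 CPM in CK1a_KD and 328 to 332 in KD_control, nearly all of it Sox9 with 208 and 212 CPM against 327 and 330, while Acan stayed under 0.5 CPM. Of the osteoblast markers, Spp1 was lower, at 897 and 907 CPM against 1402 and 1427, and Runx2 higher (0.19, adjusted p = 0.0161). Their part in the collagen changes was not tested.

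**Figure D4:**
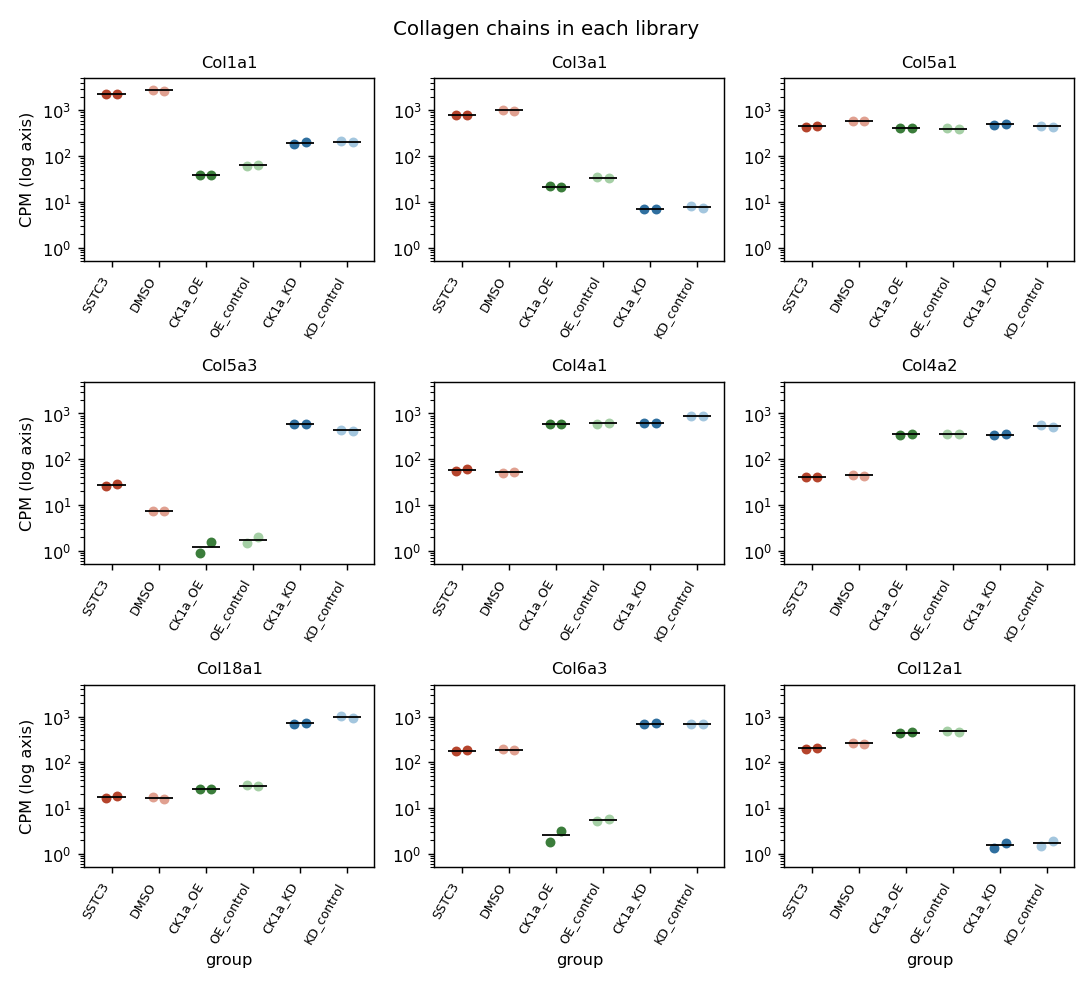
CPM of the library total (log axis) of 9 collagen chains in each library, with points for libraries, a line at each group mean and colours for groups. Col5a3 is higher in SSTC3 than in DMSO and in CK1a_KD than in KD_control, Col4a1, Col4a2 and Col18a1 are lower in CK1a_KD, and Col12a1 and Col6a3 trade places between the overexpression and knockdown sets.

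The other collagens split. The transmembrane Col23a1 had 1.85 and 1.63 CPM in CK1a_KD against 5.42 and 5.60 in KD_control (−1.62 ± 0.27, adjusted p = 3.83e-07), the largest fall by log2 fold change among the tested collagens of this comparison. Col6a2, at 95.7 and 93.4 CPM against 118 and 111 (−0.24 ± 0.06, adjusted p = 0.000255), and the fibril-associated Col16a1, at 227 and 230 against 282 and 263 (−0.22 ± 0.05, adjusted p = 4.48e-05), fell, whereas Col6a1, at 143 and 150 CPM against 150 and 148, and Col6a3, at 689 and 707 against 694 and 687, did not pass. Col8a1, at 146 CPM in each CK1a_KD library against 156 and 178, was called at −0.16 ± 0.05 (adjusted p = 0.0091), but not without CK1a_KD replicate 1 (−0.15), CK1a_KD replicate 2 (−0.16) or KD_control replicate 2 (−0.06), and it stood at −0.25 without KD_control replicate 1. DESeq2 did not call it (adjusted p = 0.0585).

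The collagens of this class that rose were low in level. Col28a1, a collagen with von Willebrand factor domains, had 3.14 and 4.31 CPM against 1.49 and 1.07 (1.58 ± 0.33, adjusted p = 3.54e-05). Col26a1 had 27 and 25 counts in CK1a_KD against 5 and 10 in KD_control, a ratio of 3.06 in CPM with an exact 95% interval of 1.70 to 5.85 for counting error (adjusted p = 0.00692, with 1.61 on the log2 scale without CK1a_KD replicate 1 and 1.30 without KD_control replicate 1, where the call was lost). Col9a3, a cartilage chain of fibril-associated type IX, was at 4.94 and 3.16 CPM against 1.49 and 2.86 (0.92 ± 0.29, adjusted p = 0.0067). It lost its call without CK1a_KD replicate 1 (0.57) or KD_control replicate 1 (0.54) and stood at 1.47 without KD_control replicate 2. Exons of other genes cover 6.1% of its exon bases, and the strand setting of the counts is not given. Col20a1, at 10.7 and 11.9 CPM against 8.78 and 9.19 (0.36 ± 0.15, adjusted p = 0.0353), lost its call without CK1a_KD replicate 2 (0.29), KD_control replicate 1 (0.33) or KD_control replicate 2 (0.40). DESeq2 did not call Col26a1 (adjusted p = 0.0562), Col9a3 (adjusted p = 0.0661) or Col20a1 (adjusted p = 0.163). Col6a5 (1.44 and 0.841 CPM against 0.560 in each control, adjusted p = 0.0834), Col7a1, Col8a2, Col9a1, Col12a1, Col15a1, Col17a1 and Col24a1 did not pass, and all but Col7a1 stayed at or under 5.04 CPM in this set. Of the 17 calls, 1 higher (Col28a1) and 3 lower (Col11a2, Col23a1 and Col27a1) passed a test for a change beyond 1.5-fold.

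The comparisons share no libraries, and the difference of their effects was tested in 1 edgeR fit over all 12. It differed between SSTC3 and knockdown for 15 of 33 collagen genes tested (background 45.1%), between SSTC3 and overexpression for 15 (32.7%) and between knockdown and overexpression for 17 (35.1%), or 11 without OE_control replicate 2. Basement membrane chains of types IV and XVIII differed between SSTC3 and knockdown: the log2 fold change was 0.67 ± 0.06 higher with SSTC3 for Col4a1 (adjusted p = 1.12e-15), 0.61 ± 0.07 for Col4a2 (adjusted p = 5.1e-12) and 0.63 ± 0.09 for Col18a1 (adjusted p = 7.21e-09). Col11a2, higher with SSTC3 and lower with knockdown, differed by 1.59 ± 0.22 (adjusted p = 1.33e-09). Its SSTC3 call alone was lost with DESeq2 and without some single libraries, as was that of Col4a1. Col5a1, lower with SSTC3 and higher with knockdown, differed by −0.48 ± 0.05 (adjusted p = 1.18e-12). Col5a3 rose in both, by 1.49 ± 0.11 more with SSTC3 (adjusted p = 8.8e-23).

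Between SSTC3 and overexpression, Col5a3 differed by 2.48 ± 0.28 (adjusted p = 4.64e-12), Col6a3 by 1.10 ± 0.17 (adjusted p = 1.59e-07) and Col5a1 by −0.33 ± 0.05 (adjusted p = 4.88e-07). Col1a1 fell less with SSTC3 than with overexpression, by 0.46 ± 0.06 (adjusted p = 2.75e-09), and Col3a1 by 0.39 ± 0.08 (adjusted p = 2.01e-05), while Col1a2 fell more, by −0.35 ± 0.05 (adjusted p = 4.36e-08). Between knockdown and overexpression Col1a1 differed by 0.65 ± 0.07 (adjusted p = 2.44e-14), Col3a1 by 0.52 ± 0.13 (adjusted p = 0.0012), Col6a3 by 1.14 ± 0.17 (adjusted p = 3.41e-08), Col4a1 by −0.44 ± 0.05 (adjusted p = 1.18e-11) and Col4a2 by −0.61 ± 0.06 (adjusted p = 7.76e-16). Of the 25 collagen genes tested for both SSTC3 and overexpression, 8 were lower in both (Col1a1, Col1a2, Col3a1, Col5a2, Col6a1, Col6a2, Col7a1 and Col12a1), as were 2.43% of the 12662 genes tested in both. Of the 24 tested for SSTC3 and knockdown, 3 were lower in both (Col5a2, Col6a2 and Col16a1), 2 higher in both (Col5a3 and Col20a1) and 3 called in opposite directions (Col4a1, Col5a1 and Col11a2), where the shares over all 12431 genes tested in both were 6.25%, 8.33% and 20.9%. The SSTC3 calls of Col4a1, Col11a2 and Col16a1 and the knockdown call of Col20a1 were lost with DESeq2 and without some single libraries. So was the overexpression call of Col12a1, while that of Col7a1 was lost without some single libraries and received no adjusted p with DESeq2. Col5a2 and Col6a2 were the collagen genes called lower in all 3 comparisons. Over all genes 26.5%, 7.57% and 26.4% were called lower for SSTC3, overexpression and knockdown, and the share lower in all 3 was not computed. The Col6a2 calls for SSTC3 and overexpression were lost without some single libraries, and the latter also with DESeq2.

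Genes that process, cross-link, degrade or bind collagen were taken from lists of 63 symbols. For SSTC3, 12 of 51 tested were higher and 17 lower, for overexpression 3 of 47 and 13, and for knockdown 12 of 45 and 20, beside 53.6%, 13.3% and 54.7% of all genes called in either direction. Among the folding and export genes, Serpinh1, which encodes the collagen chaperone HSP47, had 1964 and 2000 CPM in SSTC3 against 1209 and 1141 in DMSO (log2 fold change 0.81 ± 0.03, adjusted p = 1.74e-67). With knockdown it fell from 1612 and 1561 CPM to 976 and 975 (−0.67 ± 0.04, adjusted p = 1.09e-23). In the overexpression set it had 0.536 to 1.45 CPM, although collagen genes made 4053 CPM or more in each of its libraries. That set was counted against another list of features, and whether this low level belongs to the cells or to the counting was not tested. Fkbp10, a proline isomerase of the collagen fold, was lower in all 3 (−0.19 ± 0.04, −0.19 ± 0.03 and −0.66 ± 0.08). Mia3, needed to load collagen into transport vesicles, was lower with SSTC3 (−0.23 ± 0.06) and knockdown (−0.33 ± 0.06) and higher with overexpression (0.29 ± 0.04). Sec24d (0.82 ± 0.05) and Creb3l1 (0.52 ± 0.06) were higher with knockdown, while Creb3l1 was lower with SSTC3 (−0.25 ± 0.10). Of the 12 folding and export genes tested for knockdown, 3 were higher and 6 lower.

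Of the hydroxylases, P4ha1, a subunit of prolyl 4-hydroxylase, was higher with SSTC3 (0.36 ± 0.04, adjusted p = 4.76e-15) and lower with knockdown (−0.35 ± 0.05, adjusted p = 4.97e-09). For knockdown its partner P4hb (0.35 ± 0.04) and the lysyl hydroxylase Plod3 (0.42 ± 0.05) were higher. For overexpression Plod2 (−0.16 ± 0.04, adjusted p = 0.00918) was lower. Bmp1, which trims the C-propeptide of fibrillar procollagens, was lower in all 3 (−0.23 ± 0.05, −0.22 ± 0.04 and −0.16 ± 0.06). Its enhancer Pcolce was lower with SSTC3 (−0.27 ± 0.04) and overexpression (−0.14 ± 0.03).

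Of the 5 cross-linking enzymes, Loxl4 was higher with SSTC3, at 258 and 262 CPM against 112 and 107 (1.30 ± 0.05, adjusted p = 3.23e-79), and lower with knockdown (−0.66 ± 0.06) and overexpression (−0.14 ± 0.04). Loxl3 was higher with knockdown, at 250 and 248 CPM against 81.6 and 81.7 (1.64 ± 0.05, adjusted p = 1.05e-37). Lox was lower with SSTC3 (−0.27 ± 0.04) and overexpression (−0.28 ± 0.04) and had 1 count over the knockdown set. Loxl1 was lower in all 3 comparisons. Among genes of collagen breakdown, Mmp14, a membrane collagenase, was lower with SSTC3 (−0.73 ± 0.04) and knockdown (−0.46 ± 0.05) and higher with overexpression (0.12 ± 0.04). The protease inhibitors Timp3 (1.49 ± 0.14) and Timp1 (0.60 ± 0.07) were higher with SSTC3, and Timp1 also with knockdown (0.79 ± 0.06). Timp2, more abundant than either in these libraries, was lower with SSTC3 (−0.19 ± 0.04) and with knockdown (−0.46 ± 0.05). Of the collagen receptors, Ddr1 was lower with SSTC3 (−0.22 ± 0.05) and overexpression (−0.32 ± 0.03) and higher with knockdown (0.97 ± 0.05). Ddr2 was lower with SSTC3 (−0.13 ± 0.04) and knockdown (−0.34 ± 0.05). Itgb1, the shared subunit of the collagen-binding integrins, had 33.5 to 39.2 CPM in the knockdown set against 794 CPM or more elsewhere.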

How the data were processed

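Polyadenylated RNA of 12 mouse libraries was sequenced, and the authors deposited raw read counts per gene for each. Reads were aligned with HISAT2 to build mm10 and counted with featureCounts, per the submitters' processing notes; for versions, annotation and strand setting nothing is stated (not given in the sources used here). Gene identifiers were matched to GENCODE M21 symbols, and promoter sequences came from RefSeq (GRCm38.p6). Levels are counts per 1000000 counts of the library, here called CPM, and per kilobase of 1 annotated mRNA where genes are compared (all exon bases had been planned and are given as an alternative). Each comparison of 2 against 2 libraries was fitted with edgeR 4.0.16 in R 4.3.3 (filterByExpr, TMM factors, quasi-likelihood F test), with Benjamini-Hochberg adjusted p over all genes and a threshold of 0.05. The SE is the absolute log2 fold change divided by the square root of F. The code was tested on simulated data, where it recovered most changed genes but made false calls well above the nominal share, so calls near the threshold are less certain. Replicates differed by more than sampling noise in every group (chi-square per degree of freedom 2.29 to 3.61), so none was merged. Totals of 16063627 counts or more make 1 count at most 0.0623 CPM.

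Named with values were the tested chains of types I, III, IV, V and VI and collagens reaching a group mean of 10 CPM. Up to 10 called collagens per direction and comparison with a group mean of at least 1 CPM were named too. Of the processing genes, up to 4 per list and comparison by adjusted p had been planned, but not all of these are named. Beyond this rule, low collagens and some processing genes were chosen after their values were seen. The members, classes and lists were chosen with earlier results of these data known. Alternatives were RLE factors, library totals only, DESeq2 1.42.0, limma-voom (limma 3.58.1), other filters, a fit over all 12 libraries, the replicate number as a block, a test beyond 1.5-fold, and leaving out each library.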

Additional observations from a re-analysis of the deposited data

How the results depend on the processing

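Of the single-gene log2 fold changes recomputed under the alternatives, 957 kept their direction and their side of the threshold, 88 lost a call, 3 gained one and 25 changed sign. All sign changes were of genes without a call. Collagen genes called higher with SSTC3 numbered 5, and 3 with library totals only, 2 with DESeq2, 2 beyond 1.5-fold and 2 to 4 without 1 library. The 11 called lower became 1 beyond 1.5-fold. Over all genes, higher calls for SSTC3 went from 3830 to 3290 with library totals only, 2824 with DESeq2 and 1122 beyond 1.5-fold. Lower calls over all genes went from 3749 to 360 beyond 1.5-fold. For overexpression the 12 called lower became 7 with DESeq2 and 0 beyond 1.5-fold. Over all genes, lower calls for overexpression went from 1056 to 400 with DESeq2 and 3 beyond 1.5-fold. For knockdown the 6 called higher became 3 with DESeq2, 1 beyond 1.5-fold and 3 to 5 without 1 library, and the 11 called lower became 3 beyond 1.5-fold. The 17 differences between knockdown and overexpression became 11 to 15 without 1 library. Over all genes, higher calls for knockdown went from 4196 to 3325 with DESeq2 and 1061 beyond 1.5-fold, and lower calls from 3917 to 941 beyond 1.5-fold. The beyond 1.5-fold counts are lower by construction, since that test asks for a larger change. With DESeq2, 3 of the 12 overexpression calls (Col27a1, Col6a3 and Col7a1) received no adjusted p, and fits without 1 library rest on fewer libraries. The cause of the remaining changes in count was not tested.

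The replicate number as a block gave 4 higher and 11 lower for SSTC3, 0 and 12 for overexpression and 6 and 11 for knockdown, and ended the call of Col17a1 (1.37). Deviations of libraries with the same number correlated at −0.05, −0.01 and −0.04 over genes, so the numbers were not taken as pairing.

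Leaving out 1 library turned the sign of small changes: for SSTC3, Col4a2 ranged from −0.10 to 0.02, Col4a4 from −0.47 to 0.98, Col6a3 from −0.08 to 0.03 and Col8a1 from −0.14 to 0.01. For overexpression, Col16a1 ranged from −0.11 to 0.02, Col23a1 from −0.04 to 0.55, Col4a6 from −0.02 to 0.06 and Col5a1 from −0.02 to 0.06. For knockdown, Col12a1 ranged from −0.31 to 0.07, Col17a1 from −0.03 to 0.23, Col1a1 from −0.09 to 0.03, Col24a1 from −0.15 to 2.11, Col6a1 from −0.03 to 0.05 and Col7a1 from −0.06 to 0.03. Col6a1 was also −0.03 with library totals only, −0.01 with at least 1 CPM in 2 libraries and −0.03 in the fit over all 12 libraries, and Col7a1 was 0.00 with no filter.

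Class values, in the order SSTC3, DMSO, CK1a_OE, OE_control, CK1a_KD and KD_control, moved with the scale. Per kilobase of all annotated exon bases, fibrillar chains made 72.7%, 74.7%, 32.7%, 34.4%, 32.1% and 24.4% of the collagen level, basement membrane chains 4.20%, 3.44%, 34.7%, 32.6%, 40.3% and 50.1%, and the others 23.1%, 21.8%, 32.6%, 33.1%, 27.6% and 25.5%. Per kilobase of mRNA, chosen after seeing the data, they made 74.3%, 76.8%, 36.8%, 38.8%, 30.5% and 23.4%, 3.41%, 2.73%, 29.6%, 27.5%, 39.4% and 48.7%, and 22.3%, 20.5%, 33.6%, 33.7% and 30.0%, with the last KD_control share within its spread. Type IV alone made 3.49%, 2.82%, 30.0%, 27.9%, 21.9% and 28.0% of counts. With TMM factors over all 12 libraries, the sums outside DMSO, in the same order, were 5364, 1427, 1653, 1573 and 1398 CPM for fibrillar, 265.8, 1124, 1160, 1858 and 2663 for basement membrane and 1462, 1114, 1237, 1496 and 1583 for other chains. Depth limits the collagens under about 1 CPM.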
